A study of Mus musculus with 14 samples.

Results

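Knockdown of Ctns was compared directly with cysteamine treatment in mouse embryonic fibroblasts (MEFs), the collagen-making cells of embryonic connective tissue. Both groups were picked by their labels alone, and they make up 4 of the 14 libraries of the series, 2 on each side. The knockdown cells had been transfected with a short hairpin RNA against Ctns (sh-CTNS); the cysteamine cells had received the drug and no transfection, per the labels. All cells are labelled wild type in genotype. Hairpin sequence, drug dose and treatment times are not stated there, and an effect of losing Ctns cannot be told apart from one of transfection in this design. Untreated MEFs labelled NT2 (2 libraries) give the level beside which both groups are shown; the labels name 2 untreated groups, and NT2 was assumed to be theirs because the column headers place it with them. Replicates are not stated to be separate cultures, and p-values then cover the spread between libraries alone, which may be technical.

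Cystine, the oxidised pair form of cysteine, reaches the lysosome with degraded protein and leaves it through cystinosin, the transporter encoded by Ctns. Loss of cystinosin leaves cystine inside the lysosome, which is the defect of the disease cystinosis. Cysteamine, the drug used in that disease, splits lysosomal cystine into cysteine and a mixed disulfide that leaves by another carrier. By design the comparison sets retention of lysosomal cystine against its removal, in cells whose cysteine supply also feeds glutathione synthesis and the defence against ferroptosis, an iron-dependent death by lipid peroxidation.

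Polyadenylated RNA was measured as whole-number counts for 1399 transcripts, each listed with at least 1 count in every library, and 1385 of them had a gene symbol. Totals over these transcripts were 98481 and 79630 in the knockdown and 135829 and 162055 with cysteamine. Both knockdown libraries were thinner, and the part of this in the results was not tested. They are not sequencing depths, and a transcript lost in any library is outside the tables. No Ctns transcript is among those listed, so the knockdown itself was not checked here. Of 14 fibroblast marker genes 9 were listed, Vim, Col1a1 and Col1a2 among them. Of the markers of other tissues 1 of 13 epithelial, 1 of 11 pancreatic, 1 of 15 muscle, 1 of 8 endothelial, 0 of 12 neural and 0 of 10 blood genes were listed. Summed over the 9 fibroblast markers the level was 11336 and 11215 CPM in the knockdown and 21716 and 22448 CPM with cysteamine. CPM are counts scaled to a common library total with TMM factors (trimmed mean of M values), log2 fold changes are knockdown minus cysteamine with their standard error (SE), and a transcript is called, or passes, when its adjusted p by edgeR's quasi-likelihood test is under 0.05. For most genes with levels or counts, a call lost on leaving out a library is followed in brackets by the adjusted p without it. Other called genes carry no such value, which does not mean that their calls held.

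Knockdown and cysteamine cells differed widely. Of 1399 transcripts 141 were higher in the knockdown (10.1%) and 205 were lower (14.7%), 24.7% in all. The called differences had a median size of 2.25-fold among the higher and 1.93-fold among the lower, and 96 and 81 of them were larger than 2-fold. Of the lists described below, lower calls were made in 40 of 51 ribosomal protein genes, 8 of 17 translation factors, 7 of 11 basement membrane genes, 10 of 29 contractile and focal adhesion genes and 3 of 5 glycolysis genes, with 0 higher in each. Higher calls were made in 4 of 10 chaperones of the endoplasmic reticulum and 5 of 20 chromatin regulators, with 0 lower. The knockdown and cysteamine libraries did not overlap for 957 transcripts (68.4% of the 1399). Higher in the knockdown were 503 (36% of the 1399) and lower 454 (32.5% of the 1399). The counts depended on each library: without knockdown replicate 1 they were 47 higher and 70 lower, without knockdown replicate 2 they were 56 and 61, without cysteamine replicate 1 they were 43 and 84, and without cysteamine replicate 2 they were 13 and 54. limma-trend called 0 higher and 4 lower, with 228 transcripts at an unadjusted p under 0.05. With TMM factors taken outside the class of transcripts that is described near the end, which moved the median log2 fold change of all transcripts by 0.13, 55.5% of the calls were higher (178 against 143 lower) in place of 40.8%; with total count scaling 50.6% were (124 against 121).

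**Figure D1:**
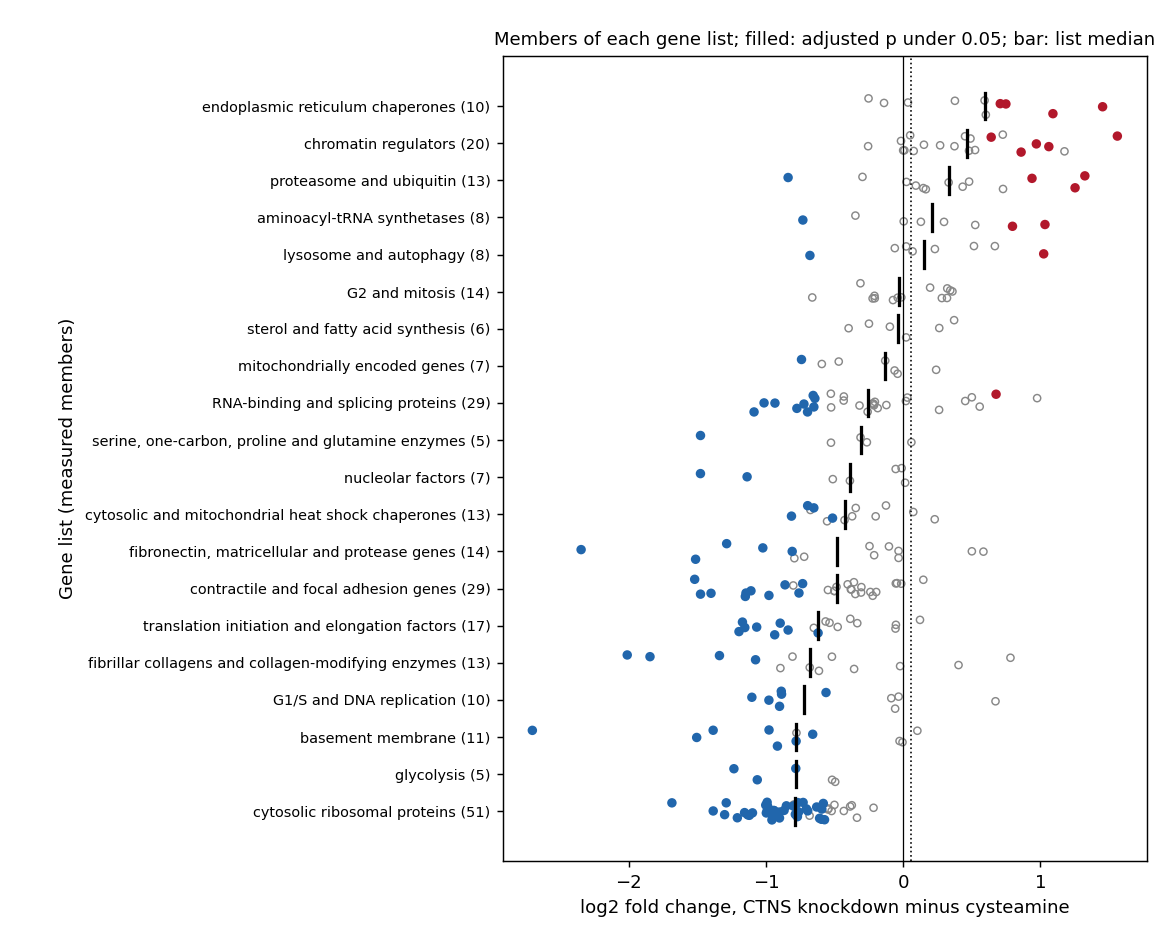
Each point is the log2 fold change (knockdown minus cysteamine, horizontal axis) of a measured member of a gene list (vertical axis, number of members in brackets); filled points passed an adjusted p of 0.05, blue lower and red higher in the knockdown, bars are list medians and the dotted line is the median over transcripts with a symbol (0.060). Medians run from -0.79 for ribosomal proteins to 0.60 for endoplasmic reticulum chaperones.

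Matrix genes held many of the most negative fold changes. Nid1 encodes nidogen-1, which links laminin to collagen IV in basement membranes. It measured 173 and 265 CPM in the knockdown, 1318 and 1499 CPM with cysteamine and 558 and 441 CPM in NT2 (log2 fold change -2.70 ± 0.21, adjusted p = 1.24e-06). The 4 treated libraries did not overlap, and NT2 lay between: Nid1 was 6.51-fold higher with cysteamine than in the knockdown. Its relative Nid2 measured 158 and 155 CPM in the knockdown, 443 and 383 CPM with cysteamine and 907 and 794 CPM in NT2 (-1.38 ± 0.23, adjusted p = 0.000976). Here NT2 was above both groups, unlike for Nid1. The laminin chain gene Lamb1 measured 324 and 319.6 CPM in the knockdown, 576 and 689 CPM with cysteamine and 487 and 489 CPM in NT2 (-0.98 ± 0.19, adjusted p = 0.0029), again without overlap. Of 11 measured basement membrane genes 7 were lower in the knockdown and 0 higher (14.7% and 10.1% of all transcripts), with a median log2 fold change of -0.78 beside 0.065 over all transcripts. Sparc (-1.50 ± 0.36), Fbln2 (-0.92 ± 0.28), the collagen IV chain gene Col4a1 (-0.78 ± 0.23) and the laminin chain gene Lamc1 (-0.66 ± 0.23) were the other 4. Of the 7, NT2 was above both groups for 4 and between them for 3. Lamb1 missed the threshold without cysteamine replicate 2 (0.0597), and 2 to 4 of the list were lower when 1 library was left out.

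Fibrillar collagen genes and the enzyme that crosslinks them followed. Lox, the lysyl oxidase that crosslinks collagen and elastin, measured 166 and 100.5 CPM in the knockdown, 544 and 556 CPM with cysteamine and 970.0 and 978 CPM in NT2 (log2 fold change -2.01 ± 0.23, adjusted p = 7.10e-05). The order was NT2, cysteamine, knockdown, with no overlap between any of the 3. Col5a2, a chain of collagen V, measured 640.3 and 521 CPM in the knockdown, 2178 and 2010.4 CPM with cysteamine and 3441 and 3113 CPM in NT2 (-1.84 ± 0.28, adjusted p = 0.000773). Col3a1, the chain of collagen III, measured 489.6 and 393 CPM in the knockdown, 1174 and 1072 CPM with cysteamine and 2174 and 1854 CPM in NT2 (-1.34 ± 0.28, adjusted p = 0.00458). Both repeated the order seen for Lox. Of 13 measured fibrillar collagen and collagen-modifying genes 4 were lower and 0 higher (14.7% and 10.1% of all transcripts), with a median of -0.68. The fourth was Pcolce, a collagen processing enhancer (-1.08 ± 0.29), and NT2 was above both groups for all 4. The collagen I genes Col1a1 (-0.81 ± 0.35, adjusted p = 0.104) and Col1a2 (-0.89 ± 0.34, adjusted p = 0.0607) did not pass, nor did Col6a3 on the other side (0.78 ± 0.29, adjusted p = 0.0599). The Col3a1 call was lost without knockdown replicate 2 (0.0675), and the calls of Lox, Col5a2, Nid1 and Nid2 held without each of the 4 libraries. The 4 transcripts that limma-trend called were Nid1, Thbs1, Lox and Col5a2.

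Among matricellular genes, Thbs1, the secreted glycoprotein thrombospondin-1, measured 136 and 164 CPM in the knockdown, 726 and 796 CPM with cysteamine and 816 and 799 CPM in NT2 (log2 fold change -2.35 ± 0.24, adjusted p = 2.17e-05). The cysteamine libraries stood near NT2 and the knockdown libraries were 5.09-fold below cysteamine. Thbs2 measured 181 and 174 CPM in the knockdown, 438 and 431 CPM with cysteamine and 744 and 581 CPM in NT2 (-1.29 ± 0.30, adjusted p = 0.00869). Timp3, an inhibitor of matrix proteases, measured 640.3 and 630.2 CPM in the knockdown, 1308 and 1277 CPM with cysteamine and 2201 and 2139.6 CPM in NT2 (-1.02 ± 0.25, adjusted p = 0.0102). For these 2, NT2 was above both treated groups. Of 14 measured genes of this list 5 were lower and 0 higher (14.7% and 10.1% of all transcripts), with a median of -0.48. Igfbp4 (-0.81 ± 0.22) was among the 5. Fn1 (-0.79 ± 0.34, adjusted p = 0.101), Ccn1 (-0.21 ± 0.22, adjusted p = 0.495) and Postn (-0.03 ± 0.82, adjusted p = 0.984) did not pass. Calls were lost for Thbs2 without knockdown replicate 1 (0.0669), knockdown replicate 2 (0.0649) or cysteamine replicate 2 (0.0625), and for Timp3 without any 1 of the 4 libraries (0.0723 to 0.0893); 1 or 2 of the list passed when a library was left out, and with total count scaling 3 did.

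Of 29 measured contractile and focal adhesion genes 10 were lower in the knockdown and 0 higher (14.7% and 10.1% of all transcripts), with a median of -0.49 and 28 below 0. Itgav, an integrin chain that binds matrix proteins, measured 218 and 219 CPM in the knockdown, 603 and 618 CPM with cysteamine and 578 and 518 CPM in NT2 (log2 fold change -1.48 ± 0.22, adjusted p = 0.000748). Tagln2, an actin-binding protein gene, measured 166 and 283 CPM in the knockdown, 678 and 592 CPM with cysteamine and 483 and 402 CPM in NT2 (-1.52 ± 0.25, adjusted p = 0.000976). Vim, the intermediate filament protein of fibroblasts, measured 1416 and 1397 CPM in the knockdown, 3554 and 3874 CPM with cysteamine and 2288 and 2111 CPM in NT2 (-1.40 ± 0.27, adjusted p = 0.00301). In each of the 3 the cysteamine libraries were above NT2 and the knockdown libraries below it. The other 7 called were the actin-binding Tagln (-1.15 ± 0.32), Vcl (-1.15 ± 0.23) and Tpm1 (-0.73 ± 0.21), the actin gene Actb (-0.98 ± 0.32), the nuclear lamina gene Lmna (-0.76 ± 0.22), Amotl2 (-0.86 ± 0.28) and Srf (-1.11 ± 0.38), the transcription factor that drives many actin genes. Acta2 (-0.55 ± 0.20, adjusted p = 0.0573) and Myh9 (0.15 ± 0.31, adjusted p = 0.766) did not pass. When 1 library was left out 4 or 5 of the list passed. Of the 9 fibroblast markers 4 were lower and 0 higher, with a median of -0.89: Vim, Col3a1, Sparc and S100a4, the last with 6 counts in the knockdown and 61 with cysteamine, 0.167-fold after scaling with an exact 95% interval of 0.0591 to 0.386. The S100a4 call was lost without knockdown replicate 2. In bulk RNA, fewer cells of a type and less RNA per cell cannot be told apart.

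**Figure D2:**
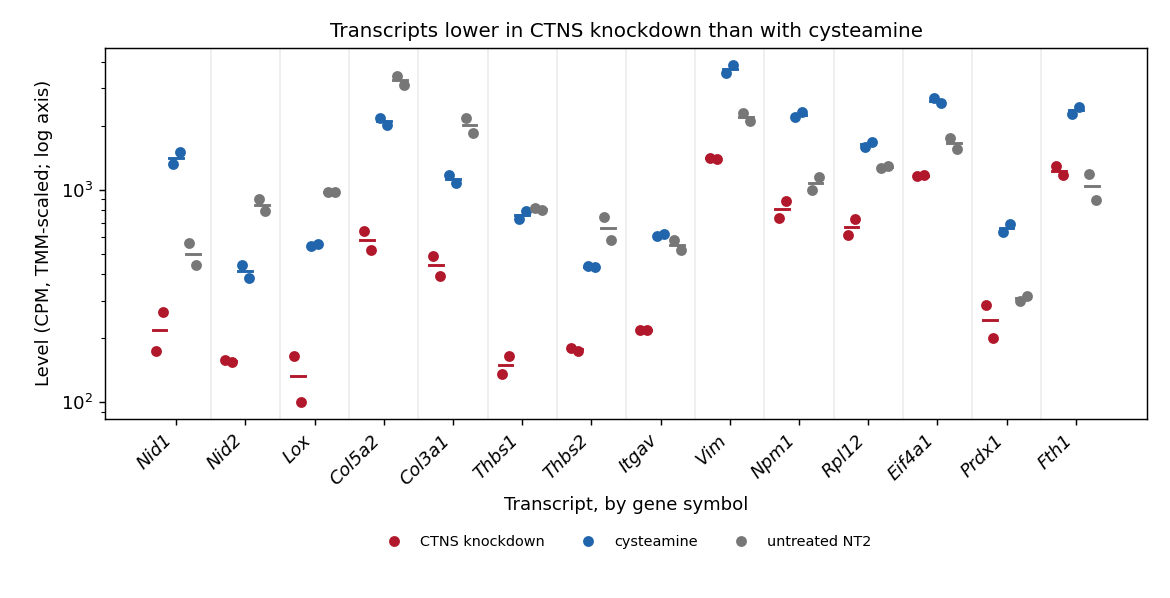
Levels (CPM scaled by TMM, log axis) of 14 transcripts lower in the knockdown; points are libraries, 2 per group, and bars their means. Knockdown points lie below cysteamine points for each of the 14, while the NT2 mean lies above both (Lox, Col5a2, Col3a1, Thbs1, Thbs2, Nid2), between (Nid1, Itgav, Vim, Rpl12, Eif4a1, Npm1, Prdx1) or, for Fth1, below both means.

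Transcripts outside these lists were among the lowest as well. The kinase gene Nuak1 measured 75.3 and 63.9 CPM in the knockdown, 304 and 302 CPM with cysteamine and 202 and 257 CPM in NT2 (log2 fold change -2.10 ± 0.43, adjusted p = 0.00364). Dab2, an adaptor for the endocytosis of receptors, measured 90.4 and 100.5 CPM in the knockdown, 326 and 329 CPM with cysteamine and 289 and 324 CPM in NT2 (-1.77 ± 0.30, adjusted p = 0.00127). Ect2, an activator of the small GTPase RhoA in cell division, measured 82.9 and 91.3 CPM in the knockdown, 304 and 298 CPM with cysteamine and 214 and 305 CPM in NT2 (-1.78 ± 0.33, adjusted p = 0.00202). All 3 had cysteamine near NT2 and the knockdown lower, and each call held without any 1 library.

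Protein synthesis genes formed the most uniform set. All 51 measured cytosolic ribosomal protein genes lay below 0, 40 were lower in the knockdown (78.4%, against 14.7% of all transcripts) and 0 higher, with a median of -0.79. Rpl12, of the large subunit, measured 610.1 and 731 CPM in the knockdown, 1596 and 1672 CPM with cysteamine and 1271 and 1292 CPM in NT2 (log2 fold change -1.29 ± 0.22, adjusted p = 0.00148). Rpl7 measured 309 and 347 CPM in the knockdown, 747 and 765 CPM with cysteamine and 649 and 532 CPM in NT2 (-1.21 ± 0.21, adjusted p = 0.00162). Rpl36 measured 234 and 265 CPM in the knockdown, 635 and 663 CPM with cysteamine and 463 and 426 CPM in NT2 (-1.38 ± 0.23, adjusted p = 0.000976). Cysteamine stood above NT2 and the knockdown below it, as for 39 of the 40 called genes. Summed over the 51 genes the level was 37286 and 36540.3 CPM in the knockdown, 63558 and 65093 CPM with cysteamine and 47581 and 47439.5 CPM in NT2. They are short, with a median length of 975 bases against 4350 over all, and with the trend of transcript length removed 10 of the 51 were lower (median -0.41). With total count scaling 21 were lower, and with 1 library left out 8 to 19. Ribosomal protein reads can be shared with pseudogene copies, which makes single values uncertain.

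Of 17 translation factors 8 were lower and 0 higher (14.7% and 10.1% of all transcripts), with a median of -0.62. Eif4a1, the helicase that opens mRNA for the ribosome, measured 1160.0 and 1169 CPM in the knockdown, 2689.9 and 2557 CPM with cysteamine and 1758 and 1549 CPM in NT2 (log2 fold change -1.17 ± 0.21, adjusted p = 0.00202). Rack1, a scaffold on the small ribosomal subunit, measured 565 and 511 CPM in the knockdown, 1276 and 1201 CPM with cysteamine and 998 and 896 CPM in NT2 (-1.20 ± 0.25, adjusted p = 0.00404). Tpt1 measured 829 and 886 CPM in the knockdown, 1847 and 1966 CPM with cysteamine and 1501 and 1404 CPM in NT2 (-1.15 ± 0.27, adjusted p = 0.00835). Each was highest with cysteamine and lowest in the knockdown. With the length trend removed 5 of the 17 were lower. Of 7 nucleolar genes that assemble ribosomes 2 were called lower and 0 higher. Npm1, nucleophosmin, measured 738 and 886 CPM in the knockdown, 2199 and 2313 CPM with cysteamine and 1002 and 1147 CPM in NT2 (-1.48 ± 0.22, adjusted p = 0.000748). Nop56, part of the box C/D particles that modify ribosomal RNA, measured 497 and 457 CPM in the knockdown, 1014 and 1089.7 CPM with cysteamine and 432 and 537 CPM in NT2 (-1.14 ± 0.22, adjusted p = 0.00285). In both the cysteamine libraries stood apart and above, the knockdown being close to NT2 for Nop56 and below it for Npm1. Ncl, nucleolin, measured 2795 and 2904 CPM in the knockdown, 3581 and 3874 CPM with cysteamine and 1679 and 1593 CPM in NT2 and did not pass (-0.39 ± 0.25, adjusted p = 0.269). Calls were lost for Rack1 without knockdown replicate 2 (0.0603) and for Tpt1 without knockdown replicate 1 (0.0858), knockdown replicate 2 (0.0649) or cysteamine replicate 2 (0.0712); those of Npm1, Nop56 and Eif4a1 held without each library.

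All 5 measured glycolysis genes lay below 0 and 3 were lower in the knockdown (median -0.78), beside 14.7% of all transcripts. Gapdh measured 519.7 and 411 CPM in the knockdown, 1046 and 1156 CPM with cysteamine and 966 and 954 CPM in NT2 (log2 fold change -1.23 ± 0.24, adjusted p = 0.0033). Eno1, enolase, measured 249 and 274 CPM in the knockdown, 534 and 556 CPM with cysteamine and 428 and 421 CPM in NT2 (-1.06 ± 0.22, adjusted p = 0.00403). Pgam1, phosphoglycerate mutase, measured 588 and 739.8 CPM in the knockdown, 1115 and 1156 CPM with cysteamine and 796 and 784 CPM in NT2 (-0.78 ± 0.20, adjusted p = 0.0107). Cysteamine was highest in each, NT2 next. Aldoa (-0.52 ± 0.25, adjusted p = 0.141) and Pkm (-0.49 ± 0.27, adjusted p = 0.196) did not pass. Calls were lost for Gapdh without knockdown replicate 2 (0.0632) or cysteamine replicate 2 (0.0597), Eno1 without knockdown replicate 1 (0.0522) and Pgam1 without knockdown replicate 1 (0.139), cysteamine replicate 1 (0.0715) or cysteamine replicate 2 (0.1). With the length trend removed 3 were lower, and with total count scaling 2, without Pgam1 (adjusted p = 0.0749).

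Of 10 genes of the G1/S step and DNA replication 6 were lower and 0 higher (14.7% and 10.1% of all transcripts), with a median of -0.72. Cdk4, a kinase that drives entry into S phase, measured 188 and 256 CPM in the knockdown, 518 and 431 CPM with cysteamine and 467 and 465 CPM in NT2 (log2 fold change -1.10 ± 0.21, adjusted p = 0.00288). Rrm1, a subunit of ribonucleotide reductase, measured 392 and 393 CPM in the knockdown, 817 and 640.5 CPM with cysteamine and 835 and 692 CPM in NT2 (-0.89 ± 0.22, adjusted p = 0.00963). Cdk6, a kinase related to Cdk4, measured 218 and 228 CPM in the knockdown, 443 and 387 CPM with cysteamine and 281 and 324 CPM in NT2 (-0.89 ± 0.25, adjusted p = 0.0178). Cysteamine and NT2 were close to each other for Cdk4 and Rrm1, with the knockdown lower. Ccnd1 (-0.98 ± 0.32), Pcna (-0.90 ± 0.29) and Mcm3 (-0.56 ± 0.20) were the other 3. Of 14 genes of G2 and mitosis 0 passed in either direction in edgeR's test, 0 at an unadjusted p under 0.05 and 0 by DESeq2. Outside the class described near the end, scaled on its own, 3 of 13 were higher, Cenpf (adjusted p = 0.0178) and Ncapd2 (0.0289) among them. Mki67 measured 685 and 840.2 CPM in the knockdown, 592 and 623 CPM with cysteamine and 669 and 678 CPM in NT2 (0.32 ± 0.21, adjusted p = 0.285). Calls were lost for Cdk4 without knockdown replicate 1 (0.0522), Rrm1 without knockdown replicate 1 (0.0769), knockdown replicate 2 (0.0686) or cysteamine replicate 1 (0.11) and Cdk6 without any 1 of the 4 libraries (0.0683 to 0.12), and 0 to 2 of the 10 passed with 1 library left out.

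RNA-binding proteins were called in both directions, 9 of 29 lower and 1 higher (14.7% and 10.1% of all transcripts), with a median of -0.26. The higher one was Son (0.68 ± 0.18). Hnrnpk, which binds poly(C) stretches, measured 497 and 493 CPM in the knockdown, 987 and 1014 CPM with cysteamine and 752 and 769.7 CPM in NT2 (log2 fold change -1.01 ± 0.16, adjusted p = 0.000976). Ybx3 measured 475 and 466 CPM in the knockdown, 897 and 1099 CPM with cysteamine and 384 and 368 CPM in NT2 (-1.09 ± 0.18, adjusted p = 0.000976). The splicing regulator gene Ptbp1 measured 482 and 539 CPM in the knockdown, 945 and 1001 CPM with cysteamine and 721 and 707 CPM in NT2 (-0.93 ± 0.20, adjusted p = 0.00457). Cysteamine stood above the knockdown in all 3, and for Ybx3 both treated groups stood above NT2. The Ptbp1 call was lost without knockdown replicate 1 or cysteamine replicate 2. Of 13 cytosolic and mitochondrial chaperones 4 were lower and 0 higher (median -0.43), all 4 subunits of the chaperonin that folds actin and tubulin: Cct6a (-0.70 ± 0.19, adjusted p = 0.0165), Cct8 (-0.81 ± 0.24, adjusted p = 0.0209), Cct7 (-0.51 ± 0.18, adjusted p = 0.0488) and Cct4 (-0.65 ± 0.23, adjusted p = 0.049). With total count scaling or the length trend removed 1 of the 13 passed, and 0 or 1 with a library left out. The heat shock genes Hspa8 (-0.20 ± 0.36, adjusted p = 0.715) and Hsph1 (0.23 ± 0.19, adjusted p = 0.403) did not pass. Of 7 mitochondrially encoded genes mt-Atp6, an ATP synthase subunit, was lower (-0.75 ± 0.26, adjusted p = 0.0468) and 0 were higher. The median of that list, -0.13, turned to 0.17 with the length trend removed, when mt-Atp6 did not pass (adjusted p = 0.545); its call was also lost without any 1 of the 4 libraries (0.101 to 0.311).

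Genes of cysteine use, redox defence and iron were thinly covered. Of 17 genes for cystine and cysteine handling Slc3a2 alone was listed, the heavy chain that carries the cystine importer to the membrane, and it measured 234 and 210.1 CPM in the knockdown, 224 and 213 CPM with cysteamine and 123 and 165 CPM in NT2 (log2 fold change 0.03 ± 0.32, adjusted p = 0.963). The 2 treated groups overlapped. Prdx1, a peroxidase that removes hydrogen peroxide, measured 286 and 201 CPM in the knockdown, 635 and 689 CPM with cysteamine and 301 and 315 CPM in NT2 (-1.42 ± 0.21, adjusted p = 0.000652). It was 2.68-fold higher with cysteamine, which stood above NT2, while the knockdown lay below NT2; the call held without each library. Abcc1, an exporter of glutathione conjugates, measured 203 and 155 CPM in the knockdown, 288 and 311 CPM with cysteamine and 131 and 102 CPM in NT2 (-0.73 ± 0.27, adjusted p = 0.0562) and passed in the fit on 8 libraries (adjusted p = 0.0229). Sod1 measured 369 and 292 CPM in the knockdown, 389.6 and 325 CPM with cysteamine and 229.6 and 213 CPM in NT2 (-0.10 ± 0.24, adjusted p = 0.803). So 1 of 3 measured genes of redox defence was lower and 0 higher, beside 14.7% and 10.1% of all transcripts.

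Fth1, the heavy chain of ferritin, which stores iron, measured 1288 and 1169 CPM in the knockdown, 2274 and 2446 CPM with cysteamine and 1179.8 and 896 CPM in NT2 (log2 fold change -0.94 ± 0.23, adjusted p = 0.00955). Cysteamine was 1.92-fold above the knockdown, whose libraries overlapped those of NT2. Its call was lost with total count scaling (adjusted p = 0.0807) and without any 1 of the 4 libraries (0.0503 to 0.0918). Ncoa4, the receptor that delivers ferritin to autophagy, measured 128 and 100.5 CPM in the knockdown, 208 and 173 CPM with cysteamine and 135 and 174 CPM in NT2 (-0.72 ± 0.30, adjusted p = 0.0915). Gpx4, the peroxidase that removes lipid peroxides and restrains ferroptosis, measured 218 and 174 CPM in the knockdown, 192 and 165 CPM with cysteamine and 198 and 189 CPM in NT2 (0.15 ± 0.28, adjusted p = 0.732), with overlap between the groups. Vdac2 did not pass (-0.43 ± 0.28, adjusted p = 0.273). Of 4 measured ferroptosis and iron genes 1 was lower and 0 higher, beside 14.7% and 10.1% of all transcripts. Prdx1 and Fth1 reads can be shared with pseudogene copies.

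Few amino acid genes were called, at shares not far from those over all transcripts (10.1% higher, 14.7% lower). Slc38a2, an importer of neutral amino acids, measured 279 and 301 CPM in the knockdown, 555 and 516 CPM with cysteamine and 531 and 426 CPM in NT2 (log2 fold change -0.88 ± 0.24, adjusted p = 0.0144). Slc1a5, a glutamine carrier, measured 105 and 73.1 CPM in the knockdown, 37.4 and 53.4 CPM with cysteamine and 35.6 and 58.1 CPM in NT2 (0.96 ± 0.44, adjusted p = 0.119). Slc38a1, a relative of Slc38a2, measured 505 and 347 CPM in the knockdown, 309.5 and 338 CPM with cysteamine and 436 and 421 CPM in NT2 (0.41 ± 0.25, adjusted p = 0.241). Of the 3 transporters Slc38a2 passed, with cysteamine near NT2 and the knockdown lower. Outside the class described near the end, scaled on its own, Slc1a5 (adjusted p = 0.0402) and Slc38a1 (0.0348) passed as higher. Phgdh (-0.31 ± 0.22, adjusted p = 0.317) and Shmt2 (-0.53 ± 0.26, adjusted p = 0.15), enzymes of serine metabolism, did not pass. Among 8 aminoacyl-tRNA synthetases 2 were higher and 1 lower. Aars, which charges alanine, measured 1129.9 and 1059 CPM in the knockdown, 619 and 640.5 CPM with cysteamine and 887 and 784 CPM in NT2 (0.80 ± 0.19, adjusted p = 0.0097). Sars, which charges serine, measured 618 and 420.1 CPM in the knockdown, 278 and 236 CPM with cysteamine and 325 and 252 CPM in NT2 (1.03 ± 0.25, adjusted p = 0.0101). Vars, which charges valine, measured 324 and 521 CPM in the knockdown, 742 and 645 CPM with cysteamine and 709 and 697 CPM in NT2 (-0.73 ± 0.23, adjusted p = 0.0336). NT2 lay between the groups for Aars and Sars. Atf4, the transcription factor of the amino acid stress response, measured 527 and 429 CPM in the knockdown, 640.4 and 734 CPM with cysteamine and 622 and 609.9 CPM in NT2 and did not pass (-0.52 ± 0.21, adjusted p = 0.0846; adjusted p = 0.00778 in the fit on 8 libraries). Calls were lost for Slc38a2 without any 1 of the 4 libraries (0.0712 to 0.12), Aars without any 1 of the 4 libraries (0.0561 to 0.1), Sars without knockdown replicate 1 (0.158) or cysteamine replicate 2 (0.0989) and Vars without knockdown replicate 1 (0.353), cysteamine replicate 1 (0.197) or cysteamine replicate 2 (0.11). With total count scaling Aars (adjusted p = 0.0848) and Vars (0.0942) did not pass.

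Chaperones of the endoplasmic reticulum fold secreted proteins and are induced by the unfolded protein response. Of 10 measured genes 4 were higher in the knockdown and 0 lower (10.1% and 14.7% of all transcripts), with a median of 0.60. Hspa5, the central chaperone BiP, measured 3194 and 3023 CPM in the knockdown, 1179 and 1089.7 CPM with cysteamine and 2510.1 and 2556 CPM in NT2 (log2 fold change 1.45 ± 0.28, adjusted p = 0.0029). The 2 cysteamine libraries stood apart and low, and the knockdown was 2.74-fold above them. Hsp90b1, the chaperone GRP94, measured 1394 and 1525 CPM in the knockdown, 672 and 694 CPM with cysteamine and 1271 and 1375 CPM in NT2 (1.09 ± 0.27, adjusted p = 0.0104). Hyou1, a chaperone that acts with BiP, measured 512 and 630.2 CPM in the knockdown, 358 and 338 CPM with cysteamine and 649 and 683 CPM in NT2 (0.71 ± 0.20, adjusted p = 0.0206). In all 3 cysteamine was below NT2, and NT2 was above the knockdown for Hyou1. Pdia4, a disulfide isomerase, measured 324 and 311 CPM in the knockdown, 165 and 209 CPM with cysteamine and 443 and 489 CPM in NT2 (0.75 ± 0.23, adjusted p = 0.0305). Pdia6 (0.60 ± 0.23, adjusted p = 0.0634), Calr (0.59 ± 0.26, adjusted p = 0.101) and Canx (0.04 ± 0.17, adjusted p = 0.904) did not pass. The calls were sensitive to single libraries: they were lost for Hspa5 without cysteamine replicate 2 (0.0636), Hsp90b1 without any 1 of the 4 libraries (0.0522 to 0.098) and Hyou1 without any 1 of the 4 libraries (0.0522 to 0.172), and 0 or 1 of the 10 passed with a library left out. With total count scaling Hspa5 alone passed, and with the length trend removed 5 did.

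Promoter sequences are shown for the 5 of these genes that hold a known element of the stress response. Of the 10 genes 9 had a promoter in the RefSeq table (assembly GRCm38.p6; 250 bases before to 50 after the start), and 5 of the 9 (55.6%) held the endoplasmic reticulum stress element (CCAAT, any 9 bases, then CCACG) on either strand, a motif chosen after the values were seen; its CCAAT end is also a CCAAT box. Among 27025 genes with a listed promoter, 37 held it (0.137%), and among the 1084 measured genes with one, 7 did. The stretches below run 5′ to 3′ on the strand of the gene and end before the start site, with the element in capitals, which read CGTGG first where it lies on the other strand. They lie at chr2:34772010-34772058 (plus strand), chr10:86705518-86705671 (minus strand), chr12:17266476-17266524 (plus), chr8:84847060-84847108 (minus) and chr11:50325785-50325833 (minus); the coordinates are those of GRCm38.p6, not of the assembly GRCm39 on which the reads were placed.
Hspa5: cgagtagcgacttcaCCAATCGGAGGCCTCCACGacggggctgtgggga
Hsp90b1: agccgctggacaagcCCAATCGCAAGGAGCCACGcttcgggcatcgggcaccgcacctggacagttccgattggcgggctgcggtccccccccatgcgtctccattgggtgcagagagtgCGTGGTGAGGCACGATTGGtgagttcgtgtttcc
Pdia6: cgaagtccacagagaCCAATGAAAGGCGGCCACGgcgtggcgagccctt
Calr: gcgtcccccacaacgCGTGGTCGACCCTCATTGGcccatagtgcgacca
Canx: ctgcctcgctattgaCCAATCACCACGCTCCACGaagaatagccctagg
Of the 5, Hspa5 and Hsp90b1, the latter with 2 copies, were called higher in the knockdown, and Pdia6, Calr and Canx were not. The window of Pdia4, also called higher, held no match, and Hyou1 had no entry. Canx measured 957 and 1050.3 CPM in the knockdown, 1014 and 943 CPM with cysteamine and 1085 and 1123 CPM in NT2. A match describes the sequence and is no evidence of binding.

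**Figure D3:**
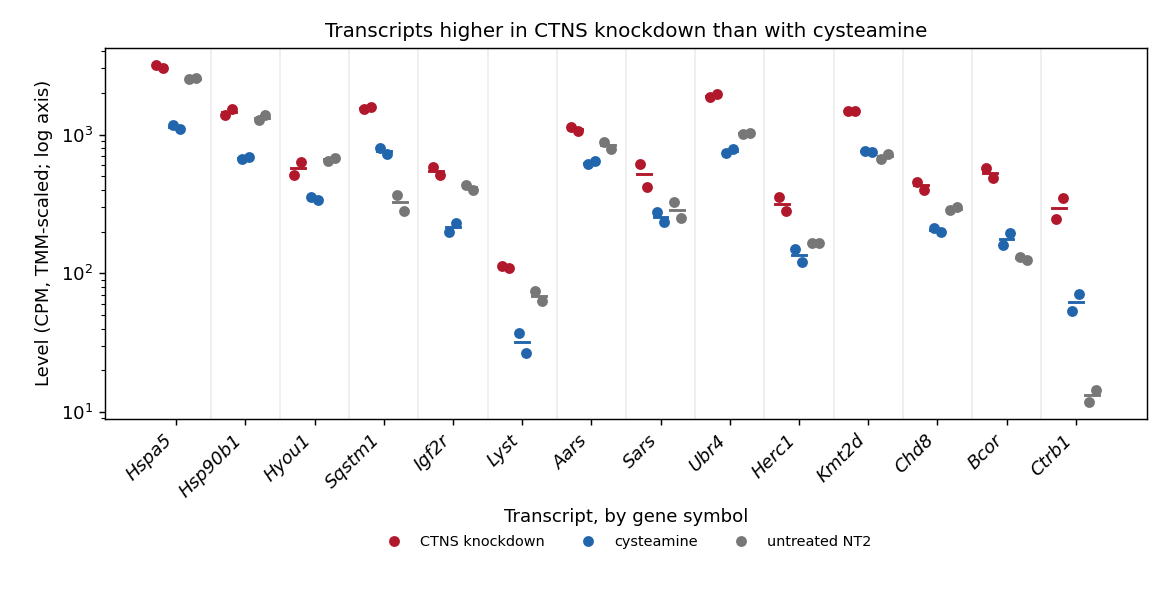
Levels (CPM scaled by TMM, log axis) of 14 transcripts higher in the knockdown; points are libraries, 2 per group, and bars their means. Knockdown points lie above cysteamine points for each of the 14. NT2 points lie above the cysteamine points for Hspa5, Hsp90b1, Hyou1, Igf2r, Lyst, Aars, Ubr4, Herc1 and Chd8. They lie below them for Sqstm1, Kmt2d, Bcor and Ctrb1, and overlap them for Sars.

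Of 8 measured lysosome and autophagy genes 1 was higher and 1 lower (12.5% each), near the shares over all transcripts (10.1% and 14.7%). Sqstm1 encodes p62, the receptor that brings ubiquitin-marked cargo to autophagy and also frees the antioxidant factor NRF2. It measured 1522 and 1571 CPM in the knockdown, 795 and 725 CPM with cysteamine and 368 and 281 CPM in NT2 (log2 fold change 1.02 ± 0.23, adjusted p = 0.00644). Both treated groups were above NT2, and the knockdown was 2.03-fold above cysteamine; the call was lost without cysteamine replicate 1 (0.0531) or cysteamine replicate 2 (0.09). Ctsl, the lysosomal protease cathepsin L, measured 294 and 192 CPM in the knockdown, 389.6 and 400.3 CPM with cysteamine and 408 and 382 CPM in NT2 (-0.68 ± 0.23, adjusted p = 0.0416), the knockdown being below the other 2; its call was lost without knockdown replicate 2 (0.306), cysteamine replicate 1 (0.124) or cysteamine replicate 2 (0.162), and with total count scaling (0.101) and DESeq2 (0.0831). Gaa, the lysosomal glucosidase, measured 475 and 521 CPM in the knockdown, 400.3 and 298 CPM with cysteamine and 360.3 and 402 CPM in NT2 (0.52 ± 0.22, adjusted p = 0.0964). Gaa did pass outside the class described near the end, scaled on its own (adjusted p = 0.00694), and with TMM factors taken outside that class (0.0425). Fnip2, a partner of folliculin at the lysosome, measured 143 and 183 CPM in the knockdown, 85.4 and 116 CPM with cysteamine and 83.1 and 92 CPM in NT2 (0.67 ± 0.31, adjusted p = 0.12). Among the others Lamp1 (0.02 ± 0.20, adjusted p = 0.953), Psap (0.07 ± 0.23, adjusted p = 0.855) and Mtor (-0.06 ± 0.40, adjusted p = 0.94) did not pass. Outside that list, Igf2r, the receptor that sorts mannose-6-phosphate-tagged enzymes to the lysosome, measured 588 and 511 CPM in the knockdown, 197 and 231 CPM with cysteamine and 432 and 402 CPM in NT2 (1.35 ± 0.19, adjusted p = 0.000652), and its call held without each library. Lyst, a regulator of lysosome size, measured 113 and 109.6 CPM in the knockdown, 37.4 and 26.7 CPM with cysteamine and 75.2 and 62.9 CPM in NT2 (1.78 ± 0.41, adjusted p = 0.00644); its call was lost without cysteamine replicate 2 (0.0708). NT2 lay between the groups for both.

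Several ubiquitin ligases and chromatin regulators were higher in the knockdown, as were 10.1% of all transcripts (14.7% were lower). Herc1, Herc2 and Bcor belong to the class described near the end, of which 20.7% were higher and 1.15% lower. Ubr4, a large ubiquitin ligase, measured 1853 and 1973 CPM in the knockdown, 742 and 783 CPM with cysteamine and 1014 and 1031 CPM in NT2 (log2 fold change 1.32 ± 0.31, adjusted p = 0.00825). Herc1, another ligase, measured 354 and 283 CPM in the knockdown, 149 and 120.1 CPM with cysteamine and 166 and 165 CPM in NT2 (1.25 ± 0.27, adjusted p = 0.00458). Ubb, which encodes ubiquitin itself, went the other way, at 377 and 466 CPM in the knockdown, 785 and 716 CPM with cysteamine and 542 and 619.6 CPM in NT2 (-0.84 ± 0.20, adjusted p = 0.00929). Of 13 proteasome and ubiquitin genes 3 were higher (the third was the ligase gene Herc2, 0.94 ± 0.23) and 1 lower (median 0.33), and no proteasome subunit among them passed; Psmd11 stood at 0.43 ± 0.29, adjusted p = 0.278. Kmt2d, a histone methyltransferase, measured 1484 and 1489 CPM in the knockdown, 769 and 747 CPM with cysteamine and 669 and 726 CPM in NT2 (0.97 ± 0.18, adjusted p = 0.00202). Chd8, a chromatin remodeller, measured 459 and 402 CPM in the knockdown, 213 and 200.1 CPM with cysteamine and 285 and 300.1 CPM in NT2 (1.06 ± 0.25, adjusted p = 0.0091). Bcor, a corepressor, measured 572 and 484 CPM in the knockdown, 160.1 and 196 CPM with cysteamine and 131 and 126 CPM in NT2 (1.56 ± 0.28, adjusted p = 0.00202). Of 20 chromatin regulators 5 were higher and 0 lower (median 0.47), Kmt2a (0.86 ± 0.22) among them; NT2 was below both groups for 4 of the 5. The 20 have a median length of 8949.5 bases, and with the length trend removed 3 of them passed, without Kmt2d (adjusted p = 0.0948). Ubr4 then stood at 0.0618, and of the 13 proteasome and ubiquitin genes 1 was higher and 1 lower. Calls were also lost for Ubr4 without knockdown replicate 2 (0.0561), cysteamine replicate 1 (0.08) or cysteamine replicate 2 (0.0798), Herc1 without knockdown replicate 1 (0.0669) or cysteamine replicate 2 (0.0683), Ubb without knockdown replicate 1 (0.12), cysteamine replicate 1 (0.0759) or cysteamine replicate 2 (0.0625), Kmt2d without cysteamine replicate 2 (0.0558) and Chd8 without knockdown replicate 1 (0.0859) or cysteamine replicate 2 (0.077).

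Further transcripts were high in the knockdown. Golga4, a Golgi tether gene, measured 444 and 402 CPM in the knockdown, 149 and 169 CPM with cysteamine and 209.8 and 155 CPM in NT2 (log2 fold change 1.40 ± 0.23, adjusted p = 0.00108). Baz2a, a chromatin gene, measured 301 and 283 CPM in the knockdown, 90.7 and 107 CPM with cysteamine and 127 and 140.4 CPM in NT2 (1.55 ± 0.31, adjusted p = 0.00351). Sltm, an RNA-binding protein gene, measured 866 and 621 CPM in the knockdown, 283 and 285 CPM with cysteamine and 202 and 198 CPM in NT2 (1.40 ± 0.23, adjusted p = 0.000976). Knockdown libraries stood above both other groups in all 3. Fam129a measured 249 and 201 CPM in the knockdown, 42.7 and 71.2 CPM with cysteamine and 119 and 203 CPM in NT2 (1.94 ± 0.37, adjusted p = 0.00279), its NT2 libraries reaching the knockdown level. The calls of these 4 held without each library. Prkdc, the DNA-dependent protein kinase of double-strand break repair, measured 136 and 109.6 CPM in the knockdown, 48 and 44.5 CPM with cysteamine and 51.5 and 72.6 CPM in NT2 (1.40 ± 0.37, adjusted p = 0.0128); its call was lost without knockdown replicate 1 (0.126), cysteamine replicate 1 (0.0542) or cysteamine replicate 2 (0.084). H2-D1, a class I histocompatibility gene whose reads can be shared with its relatives, measured 166 and 137 CPM in the knockdown, 32 and 44.5 CPM with cysteamine and 59.4 and 58.1 CPM in NT2 (1.94 ± 0.37, adjusted p = 0.00239), and its call held without each library. Rnf213, the other of 2 interferon-stimulated genes listed, measured 859 and 831 CPM in the knockdown, 704 and 765 CPM with cysteamine and 2149.8 and 2033 CPM in NT2 (0.20 ± 0.21, adjusted p = 0.505). For Rnf213 both treated groups were well below NT2 and close to each other. H2-D1 is a member of the class described next, and Rnf213 is not.

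A class of 347 transcripts, set from the untreated libraries alone as those whose share of counts in the other untreated group, labelled NT, was high relative to NT2, differed as a block. It took 32.4% ± 0.502 of the counts in the knockdown, 17.0% ± 0.78 with cysteamine and 9.59% ± 0.148 in NT2 (SD, n = 2 each). Counts were concentrated: the 3 transcripts with most counts in the series took 15.9%, 7.85% and 3.39% in these groups. The class was defined after these data had been seen, and neither knockdown nor cysteamine libraries entered it. NT2 did enter the definition, so a low share of the class in NT2 is part of the choice. Of the class 72 were higher in the knockdown and 4 lower, with a median log2 fold change of 0.85; of the other 1052 transcripts 69 were higher and 201 lower, with a median of -0.12. Most of the highest called fold changes of the comparison belonged to members. Adam33, a metalloprotease gene, had 21 counts in the knockdown and 4 with cysteamine, 8.93-fold after scaling with an exact 95% interval of 3.01 to 35.8. Recql5, a helicase gene, had 27 counts in the knockdown and 9 with cysteamine, 5.1-fold after scaling with an exact 95% interval of 2.33 to 12.3. Ctrb1, a pancreatic protease gene, measured 249 and 347 CPM in the knockdown, 53.4 and 71.2 CPM with cysteamine and 11.9 and 14.5 CPM in NT2 (2.21 ± 0.47, adjusted p = 0.00458). Acox3, of peroxisomal fat oxidation, measured 407 and 347 CPM in the knockdown, 107 and 80.1 CPM with cysteamine and 23.8 and 48.4 CPM in NT2 (2.02 ± 0.41, adjusted p = 0.00364). Sirpb1c (2.17 ± 0.55, adjusted p = 0.0101), Cmya5 (21 counts in the knockdown and 8 with cysteamine, 4.47-fold after scaling with an exact 95% interval of 1.9 to 11.7) and the deacetylase gene Sirt7 (23 counts in the knockdown and 9 with cysteamine, 4.35-fold after scaling with an exact 95% interval of 1.94 to 10.7) were further high members. Counting intervals cover counting error only.

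The markers of other tissues that were listed are members of this class. Beside Ctrb1 they were Cdh1, the epithelial cadherin (18 counts in the knockdown and 7 with cysteamine, 4.38-fold after scaling with an exact 95% interval of 1.74 to 12.4), Ttn, the giant protein of muscle (459 and 411 CPM in the knockdown, 246 and 218 CPM with cysteamine and 99 and 194 CPM in NT2; 0.92 ± 0.28, adjusted p = 0.0289; -0.26 and adjusted p = 0.426 with the length trend removed, and adjusted p = 0.0702 by DESeq2), and the endothelial receptor gene Flt1 (113 and 73.1 CPM in the knockdown, 144 and 151 CPM with cysteamine and 119 and 43.6 CPM in NT2; -0.64 ± 0.47, adjusted p = 0.33). Flt1 did not pass and lay lower in the knockdown. With the class left out and the rest scaled again 169 of 1052 transcripts were higher and 219 lower. Calls were lost for Adam33 without cysteamine replicate 2 (0.0757), Recql5 without knockdown replicate 1 (0.0651) or cysteamine replicate 2 (0.0817), Acox3 without cysteamine replicate 2 (0.0625), Sirpb1c without knockdown replicate 1 (0.139), cysteamine replicate 1 (0.0531) or cysteamine replicate 2 (0.0709), Cmya5 without any 1 of the 4 libraries (0.0639 to 0.134), Sirt7 without knockdown replicate 1 (0.138), knockdown replicate 2 (0.102) or cysteamine replicate 2 (0.226), Cdh1 without any 1 of the 4 libraries (0.0667 to 0.297) and Ttn without any 1 of the 4 libraries (0.0893 to 0.172). The call of Ctrb1 held without each.

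The difference between the groups also ran with transcript length, taken from GENCODE release M21 for 1385 transcripts. Outside the class, the median log2 fold change was -0.77 for 52 transcripts of up to 1 kb, -0.52 for 115 of 1 to 2 kb, -0.21 for 299 of 2 to 4 kb, -0.041 for 394 of 4 to 8 kb, 0.16 for 138 of 8 to 12 kb and 0.48 for 45 longer ones. Of the shortest 33 were lower and 0 higher, and of the longest 1 was lower and 13 higher. The 51 ribosomal protein genes lie outside the class and have a median length of 975 bases, so many of the shortest transcripts are theirs. Their lower levels and the length trend were not separated. Spearman's rho between length and fold change was 0.40 across these 1043 transcripts, which share the 4 libraries and are not independent. Within the class it was -0.0042 across 342. Measured by levels against NT2, the shortest transcripts outside the class had a median log2 ratio of -0.30 in the knockdown and 0.41 with cysteamine, and the longest 0.38 and -0.34, so that the 2 groups lay on opposite sides of NT2 at both ends. The 136 transcripts with a symbol that were higher had a median length of 4552 bases and the 203 lower ones 2616. For the 1046 that were not called the median was 4618, so the lower ones were short and the higher ones were not longer. With each library's length trend removed 105 transcripts were higher and 144 lower.

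**Figure D4:**
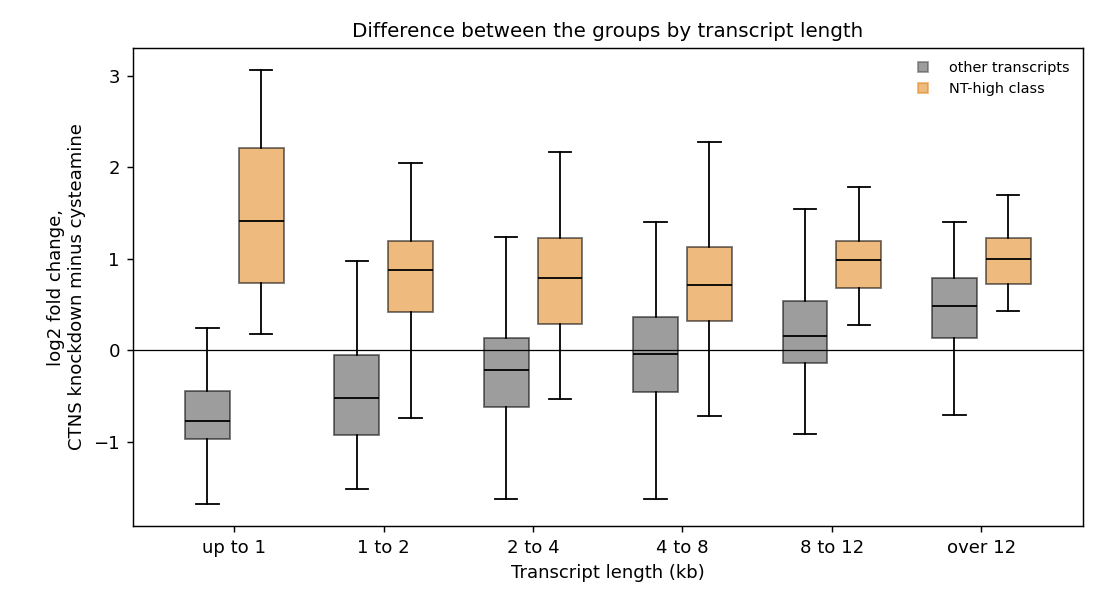
Log2 fold change (knockdown minus cysteamine, vertical axis) by transcript length in kb (horizontal axis), for the 347-member class high in NT relative to NT2 (orange) and the other transcripts (grey); boxes span the quartiles, lines are medians and whiskers reach the farthest value within 1.5 box heights. Grey medians climb from -0.77 to 0.48 with length; orange medians lie between 0.72 and 1.42 without such a climb, their shortest and longest bins holding 5 and 18 transcripts (342 of the class have a length).

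By mean level NT2 was between the groups for 64 of the 141 higher and 141 of the 205 lower transcripts. It was below both for 71 higher and 12 lower ones, as for Sqstm1, and above both for 6 higher and 52 lower ones, as for Lox. On the log2 scale the cysteamine level was nearer to NT2 for 108 of the higher and 140 of the lower transcripts, and the knockdown level for 33 and 65. These positions are descriptions of levels and were not tested. For the class of 347, which holds 72 of the 141 higher transcripts, a low share in NT2 was part of the choice.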

How the data were processed

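Polyadenylated RNA of 14 MEF libraries was measured. Bead-captured mRNA was fragmented, and pieces of 50 to 100 nucleotides were cut from a gel, tailed, ligated and amplified, per the labels' protocols. Tools named without roles were STAR 2.7.10a, Bowtie 1.2.3, cutadapt 2.8 and bcl2fastq 2.20.0.422, with the assembly GRCm39, per the submitters' processing notes; counter, strand setting and annotation are not stated. The authors deposited raw counts, whole numbers per Ensembl transcript; although the tables are named as CPM, totals differ between libraries. The smallest value is 1, so a fall to 0 cannot be seen and totals are not depths. The median count per transcript was 35 and 29 in the knockdown and 46 and 55 with cysteamine, which limits precision.

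Symbols and lengths came from GENCODE M21 by identifier. edgeR 4.0.16 in R 4.3.3 fitted the 14 libraries with 7 group means (7 residual degrees of freedom, TMM factors), and the two-sided quasi-likelihood test of knockdown minus cysteamine was adjusted over 1399 transcripts by Benjamini-Hochberg at 0.05. On simulated counts it called 96% and 82% of transcripts raised 4- and 2-fold, 88% and 50% of those lowered as much, and 2 of 1199 unchanged ones. The simulation used the spread estimated over all 14 libraries, with no length trend or class difference between the groups. These rates need not hold for the real counts. Alternatives were other scalings, DESeq2 1.42.0, limma-trend 3.58.1, a filter on low counts, fewer libraries, each replicate left out and a replicate block; a scaling outside the class of 347 and a fit without the length trend were added after the data were seen. Members, lists and rules were chosen with earlier results of these data known. Named genes were the 8 highest and 8 lowest called fold changes (mean count of at least 10 in a group, libraries not overlapping), in 2 versions (all transcripts, and those outside the class), up to 3 members of each list by p, and a set of stress genes; other list members were named after their values were seen, and some named genes are covered by their list's counts alone. Some named genes are not reported here.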

Additional observations from a re-analysis of the deposited data

How the results depend on the processing

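The 72 named transcripts that were called kept their direction in the alternatives run, except that Ttn turned to -0.26 with the length trend removed. Counts of calls moved more. Against 141 higher and 205 lower, the fit on 8 libraries gave 234 higher and the fit on the 4 compared libraries 238, total count scaling 121 lower, and limma-trend 0 higher and 4 lower. Leaving out 1 library gave 13 to 56 higher and 54 to 84 lower. Of the 72, 28 passed without each of the 4 libraries, 6 were lost with DESeq2 and 68 with limma-trend. The common dispersion was 0.0298 over 14 libraries and 0.00776 over these 4; the cause of the differences in counts was not tested. The main fit did not pair libraries by replicate number, and whether the numbers pair them was not settled. Deviations of same-numbered libraries correlated across transcripts at 0.28 between knockdown and cysteamine. The correlation was 0.13 to 0.25 in 4 of the other 5 pairs of groups and 0.092 between NT2 and cysteamine. The fit with the replicate block gave 209 higher and 247 lower, lost 0 of the 72 and added Abcc1 (adjusted p = 0.0365) and mt-Nd5 (0.0325) among the named.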

Other observations

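Cells given the hairpin together with a CTNS plasmid (2 libraries, the thinnest of the 4 groups, with totals of 87972 and 64530) entered no comparison above, and their levels are given as values. Nid1 stood at 189.6 and 173 CPM there, Lox at 209 and 211 CPM and Col5a2 at 739 and 867 CPM. Prdx1 stood at 256 and 372 CPM and Sqstm1 at 1071 and 1139.5 CPM. Hspa5 stood at 2038 and 1982 CPM and Ctrb1 at 427 and 409 CPM.

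Sterol and fatty acid synthesis genes, not described above, gave 0 of 6 calls in either direction in edgeR's test, 0 at an unadjusted p under 0.05 and 0 by DESeq2. Outside the class of 347, scaled on its own, 1 of 5 was higher, Srebf2 (adjusted p = 0.0195). Srebf2, the regulator of sterol genes, measured 738 and 575 CPM in the knockdown, 480.3 and 538 CPM with cysteamine and 736 and 566 CPM in NT2 (0.37 ± 0.20, adjusted p = 0.181), and Fasn, fatty acid synthase, 927 and 1132 CPM in the knockdown, 1185 and 1254 CPM with cysteamine and 1287 and 1191 CPM in NT2 (-0.25 ± 0.19, adjusted p = 0.359). The growth factor gene Vegfa, an ATF4 target, measured 301 and 237 CPM in the knockdown, 288 and 311 CPM with cysteamine and 154 and 213 CPM in NT2 (-0.14 ± 0.25, adjusted p = 0.703).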
